A study of Mus musculus with 12 samples.

Results

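The T cell receptor alpha and beta V segments are 87 genes of 50600 in the count tables, 65 of the alpha locus (symbols beginning with Trav) and 22 of the beta locus (symbols beginning with Trbv). They were chosen by their level: every gene so named whose counts summed to at least 120 over the 12 libraries, of 163 genes with such names (128 Trav and 35 Trbv). The members held 99.1% of all Trav counts and 99.9% of all Trbv counts, so their levels are a description and were not tested. Just inside the limit stood Trav13n-3 with a sum of 126 and Trbv5 with 130. Just outside stood Trav9d-1 with 108, and Trav9n-1 and Trbv21 with 81 each. Among the members, Trav8-2 and Trbv24 are annotated as pseudogenes.

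Polyadenylated RNA had been sequenced from lymph node CD8+ T cells, the cytotoxic T lymphocytes, of male C57BL/6J mice aged 8 weeks. The animals carried no altered allele named in the labels and were held in constant darkness, so that time was set by their internal clock. Cells were taken at circadian times (CT) 2, 6, 10, 14, 18 and 22 h on day 2 and on day 1, with 1 library per time and day. Neither the number of mice behind each library nor whether the days used separate animals is given in the labels, and p-values therefore reflect only how far these libraries differ from each other. The libraries held 24689964 to 33497078 counts on genes. The CD8 and T cell receptor complex markers summed to 7133 to 8803 CPM (counts scaled to the size of each library), with all but Ptcra of the 16 genes tested. The 10 CD4 T cell markers summed to 176 to 279 CPM, the 10 B cell markers to 175 to 357 CPM and the 15 monocyte and macrophage markers to 553 to 1680 CPM. The recombinase genes Rag1 and Rag2 summed to 37 and 5 counts over all libraries, and Ptcra, the partner of the beta chain in immature thymocytes, to 5. Dntt, the enzyme that adds bases at the joints during rearrangement, summed to 3387 counts, with 230 to 364 in each library.

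A T cell receptor chain is encoded by a V segment joined in the thymus, by recombination of the DNA, to a joining segment (and, in the beta chain, a diversity segment), and spliced to a constant region. The V segment carries the first pair of loops that touch the antigen-presenting molecule, and its 3′ end opens the third loop, which is the most variable. Each mature T cell transcribes its own rearranged chain, so counts over many cells describe how often each segment is used, weighted by the RNA in each cell. Fewer cells with a segment and less RNA per cell cannot be told apart here.

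The 3′ ends of some of the segments described below show where the third loop begins. Bases are from GENCODE release M21 transcripts of GRCm38, and the capitals mark the codon of the conserved cysteine, found as TGT or TGC 6 bases after the start of TANNNNTGT or TANNNNTGC within the last 60 bases of the transcript. The search used the coding strand only and kept the last match. It found the motif in 65 of 65 Trav members, 20 of 22 Trbv members and 149 of all 163 V genes (91.4%). A match is a description of these letters and not a test of function. The 5 leading Trbv members by count came from chromosome 6 on the plus strand, at chr6:41119305-41119364 (Trbv12-2), chr6:41121773-41121832 (Trbv13-2), chr6:41152171-41152230 (Trbv16), chr6:41048769-41048828 (Trbv3) and chr6:41271822-41271881 (Trbv29), while Trbv31 lies at chr6:41557691-41557750 on the minus strand.
Trbv12-2: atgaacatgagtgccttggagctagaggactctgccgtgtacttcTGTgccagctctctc
Trbv13-2: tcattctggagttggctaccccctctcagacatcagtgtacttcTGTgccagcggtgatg
Trbv16: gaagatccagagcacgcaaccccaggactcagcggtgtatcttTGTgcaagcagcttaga
Trbv3: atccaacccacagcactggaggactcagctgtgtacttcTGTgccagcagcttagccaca
Trbv29: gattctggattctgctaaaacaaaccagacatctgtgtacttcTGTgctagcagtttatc
Trbv31: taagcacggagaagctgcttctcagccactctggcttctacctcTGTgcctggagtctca

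From the alpha locus, Trav6-1 (chr14:52638903-52638962) and Trav7-1 (chr14:52655269-52655328) stand for the segments at its 5′ end, and Trav12-2 (chr14:53616855-53616914) and Trav3-3 (chr14:53666447-53666506) for those nearer the joining segments. All lie on the plus strand, and the capitals mark the cysteine codon as before.
Trav6-1: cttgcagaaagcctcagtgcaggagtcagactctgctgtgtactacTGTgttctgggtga
Trav7-1: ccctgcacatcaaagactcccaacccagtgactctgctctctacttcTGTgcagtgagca
Trav12-2: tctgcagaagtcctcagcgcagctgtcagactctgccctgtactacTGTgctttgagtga
Trav3-3: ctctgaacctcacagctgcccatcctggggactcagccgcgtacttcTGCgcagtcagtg

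Much of the mouse alpha locus is duplicated, and genes of the copies carry a d or an n in their symbol. The last 120 bases of the Trav16 genes show how little can separate such copies: Trav16n (chr14:53351502-53351621) differed from Trav16 (chr14:53743586-53743705) at 3 bases and Trav16d-dv11 (chr14:53047702-53047821) at 4. The capitals mark bases that differ from Trav16.
Trav16: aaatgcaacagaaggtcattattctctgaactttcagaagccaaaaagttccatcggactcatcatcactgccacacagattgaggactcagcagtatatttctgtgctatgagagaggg
Trav16n: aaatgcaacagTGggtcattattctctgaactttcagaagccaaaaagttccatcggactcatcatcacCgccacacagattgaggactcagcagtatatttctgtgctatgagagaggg
Trav16d-dv11: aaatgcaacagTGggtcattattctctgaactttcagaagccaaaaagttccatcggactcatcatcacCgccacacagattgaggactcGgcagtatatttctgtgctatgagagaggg

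Trav6-6 (chr14:53517307-53517366) and Trav6d-6 (chr14:52822300-52822359) have the same transcript throughout, of which the last 60 bases are shown with the cysteine codon in capitals. A read from either of them has no unique place in the genome, which matters for their counts below.
Trav6-6: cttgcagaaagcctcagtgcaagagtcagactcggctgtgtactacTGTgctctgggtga
Trav6d-6: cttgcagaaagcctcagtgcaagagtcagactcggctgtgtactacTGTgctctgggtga

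In the beta locus, usage was spread over many segments and differed little from library to library. Usage is the count of a segment as a percent of the summed counts of all members of its locus in the same library. Trbv12-2 had the highest mean usage, 8.83% ± 0.389 (SD, n = 12), and ranged from 7.91% to 9.41%. Trbv13-2 followed with 8.21% ± 0.356, Trbv16 with 8.04% ± 0.239, Trbv3 with 8.00% ± 0.402, Trbv29 with 7.72% ± 0.233 and Trbv13-1 with 7.69% ± 0.240 (SD, n = 12 each). Read within each library, Trbv12-2 was above Trbv13-2 in 11 of 12 and Trbv13-2 above Trbv16 in 11 of 12, while Trbv16 exceeded Trbv3 in 7 and Trbv3 exceeded Trbv29 in 8. At the lower end, Trbv31 was used at 2.08% ± 0.127 and the pseudogene Trbv24 at 0.307% ± 0.0437 (SD, n = 12 each).

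Grouped by subgroup, the 3 Trbv13 genes held 22.8% ± 0.492 of Trbv counts and the Trbv12 genes 15.6% ± 0.544 (SD, n = 12 each, with all Trbv genes in the denominator). The order changed under the RSEM program, which shares out reads that fit several genes. The RSEM expected counts, not scaled for length, summed to 11040 for Trbv29, 10634 for Trbv13-2 and 8978 for Trbv12-2 over the 12 libraries. In TPM, a transcript abundance that RSEM also scales for gene length, Trbv13-2 led with 197 ± 11.5 TPM and Trbv29 followed with 192 ± 16.7 TPM (SD, n = 12 each). Trbv12-2, first by count, stood at 136 ± 14.3 TPM, the seventh value among Trbv genes. The effective number of Trbv segments, the number of equally used segments that would give the same Shannon entropy, was 16.4 to 16.7 in all 12 libraries.

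**Figure D1:**
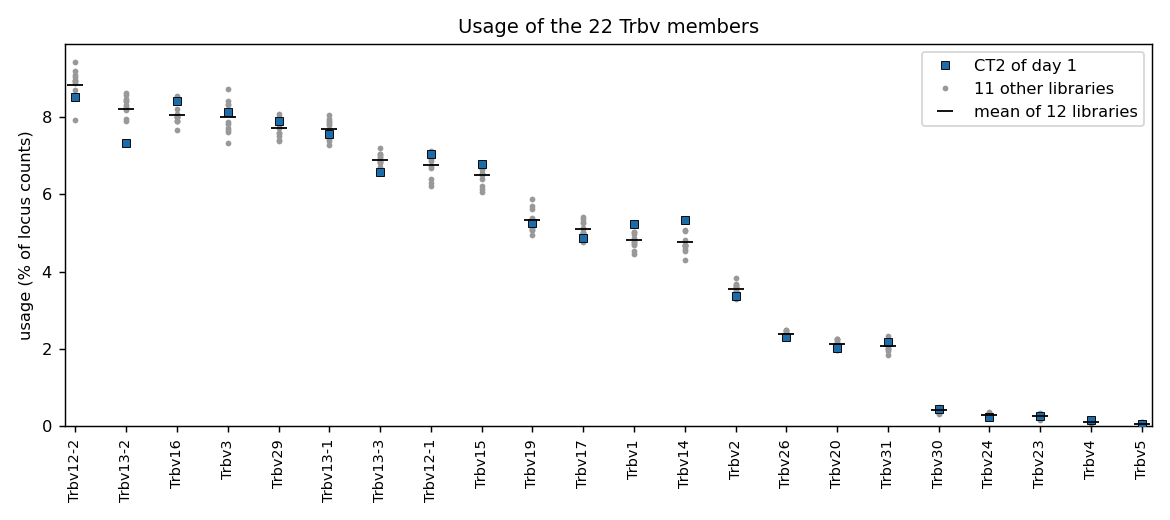
Usage of each Trbv member as a percent of Trbv counts (vertical axis), with segments ordered by mean usage along the horizontal axis; the blue square is CT2 of day 1, grey points are the 11 other libraries and the bar is the mean. Mean usage was 8.83% for Trbv12-2 and 0.0722% for Trbv5, and the points of each segment lie close together.

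Trbv4 and Trbv5 had almost no unique count but a sizeable RSEM estimate. Trbv4 had 226 counts and Trbv5 130 summed over the libraries, against RSEM expected counts of 6452 and 5367, which share out reads that fit several genes. The RSEM value was 28.6 times the count for Trbv4 and 41.3 times for Trbv5. Their TPM was 94.95 ± 8.01 and 87.0 ± 10.4 (SD, n = 12 each), between Trbv14 with 103 ± 11.9 TPM and Trbv1 with 78.5 ± 8.50 TPM. Both genes lie within 5830405F06Rik, a long noncoding RNA gene on the same strand (chr6:41055883-41063102, GRCm38), whose own sum was 476 counts and 1458 RSEM expected counts. The part of this overlap in the low counts was not tested. By RSEM expected counts, Trbv4 held 4.69% ± 0.225 and Trbv5 3.86% ± 0.247 of the beta locus (SD, n = 12 each), against count usage of 0.125% ± 0.0339 and 0.0722% ± 0.0265 (SD, n = 12 each).

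In the alpha locus, counts were spread over more segments, with an effective number of 48.8 to 52.0. Trav16n was used at 5.42% ± 0.444 of Trav counts, Trav16 at 5.22% ± 0.428, Trav12-2 at 4.505% ± 0.413, Trav3-3 at 4.44% ± 0.206, Trav14-1 at 3.82% ± 0.245 and Trav13-1 at 3.78% ± 0.409 (SD, n = 12 each). The ranges of Trav16n (4.68% to 6.04%) and Trav16 (4.65% to 6.00%) overlapped, and Trav16n was the higher in 7 of 12 libraries and equal in 1. Only these 6 Trav members reached a mean of 5 CPM. Per length, Trav16n was highest at 49.6 ± 4.20 TPM, followed by Trav16 at 35.6 ± 3.31 TPM and Trav12-2 at 28.8 ± 2.86 TPM (SD, n = 12 each).

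By RSEM expected counts over all Trav genes, the 15 Trav6 genes together held 14.2% ± 0.571, the 9 Trav14 genes 13.7% ± 0.403 and the 10 Trav12 genes 12.1% ± 0.534 (SD, n = 12 each). Trav1, the segment of the invariant receptor of mucosal-associated invariant T cells, was used at 0.780% ± 0.171 of counts (SD, n = 12). Trav11 and Trav11d, segments of the invariant natural killer T cell receptor, were not members, with sums of 3 counts and 1 count. Their RSEM expected counts summed to 32 and 256, and the Trav11 subgroup held 0.450% ± 0.115 of Trav expected counts (SD, n = 12).

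**Figure D2:**
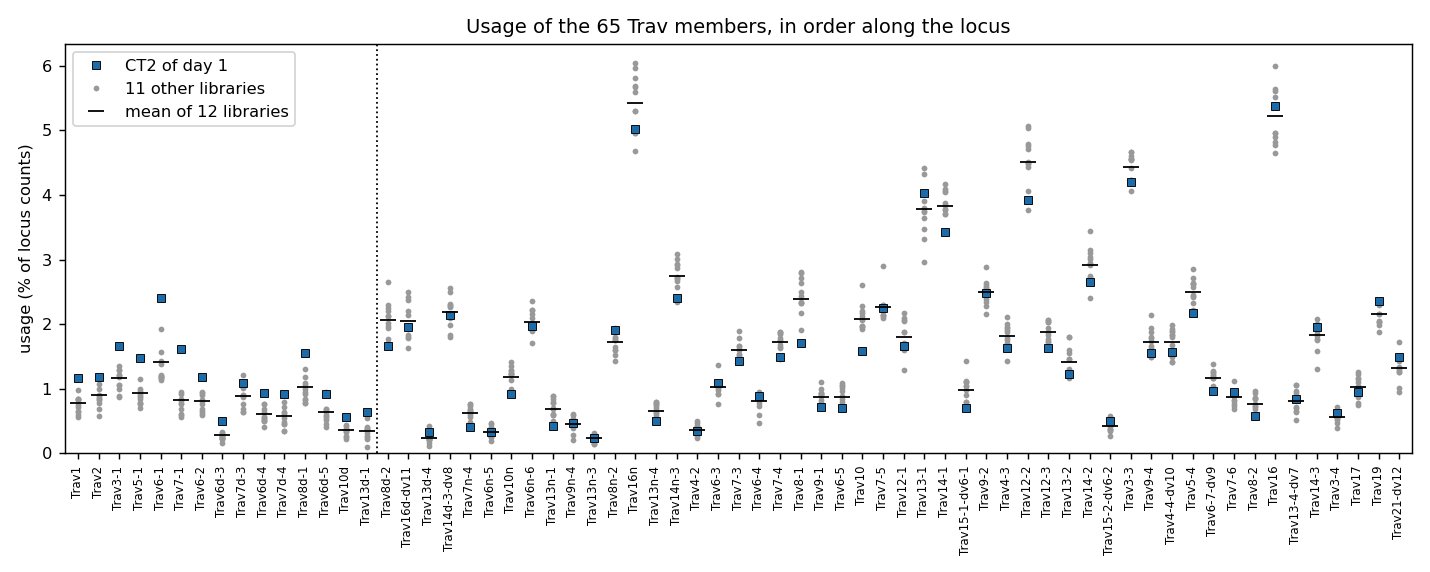
Usage of each Trav member as a percent of Trav counts (vertical axis), with the 65 members in order along the locus; the blue square is CT2 of day 1, grey points are the 11 other libraries, the bar is the mean and the dotted line is the widest gap between members. Of the 15 members left of the line, 13 have their highest usage in CT2 of day 1, and Trav16n and Trav16 are the most used.

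Duplicated Trav genes had smaller shares of the unique counts than of RSEM's estimates. The 55 genes without a copy letter held 72.3% ± 0.834 of Trav counts but 50.4% ± 1.03 of RSEM expected counts. The 39 genes of the d copy held 11.5% ± 0.770 against 23.2% ± 1.31, and the 34 genes of the n copy 16.2% ± 0.713 against 26.4% ± 1.24 (SD, n = 12 each). Of the genes without a letter 42 were members, against 12 of the d copy and 11 of the n copy. The 36 Trav genes whose transcript is identical to that of another gene had 6 counts in all against 19814 expected counts, and none was a member. Trav6-6 and Trav6d-6 illustrate this, with 0 counts each and 1295 RSEM expected counts each. Trav12n-3, with 99.7% of its 50-base windows shared with other V genes, also had 0 counts but 28.2 ± 13.4 TPM (SD, n = 12), the fourth value among Trav genes. The usage of duplicated Trav segments is therefore uncertain. Trbv members share little sequence with other V genes, and Trbv4 and Trbv5 had 0% of windows shared. Those genes, with 0.035 and 0.0242 counts per expected count, were left out of the groups below for their overlap with 5830405F06Rik. The median count per expected count was 1.40 (1.18 to 2.48) for the 27 other members with under 5% of windows shared, 20 of them Trbv. It was 1.36 (0.841 to 2.24) for 33 members with 5% to 50% shared and 0.832 (0.245 to 6.08) for those with over 50% shared.

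**Figure D3:**
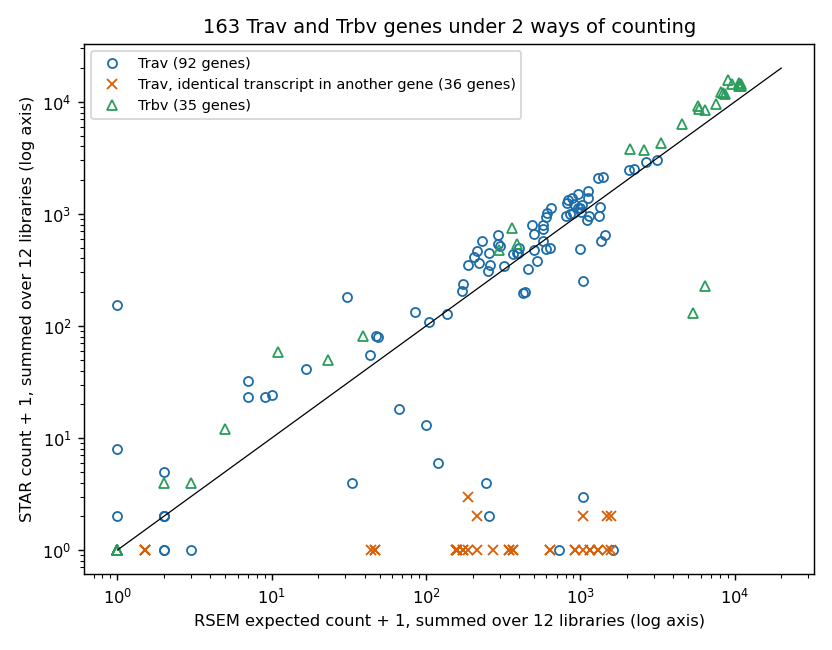
Unique STAR count against RSEM expected count of each of the 163 V genes, both summed over 12 libraries, plus 1 and on log axes; the line marks equal values. The 36 Trav genes with an identical transcript elsewhere (crosses) lie along the bottom, and Trbv4 and Trbv5 are the triangles far below the line at the right.

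Across circadian times, no V segment passed an edgeR test over all genes with all 12 libraries and the filter on low counts. The 24 h test fitted a daily wave (cosine and sine terms) with edgeR's quasi-likelihood F test. It called 0 of 16396 genes at an adjusted p under 0.05 (0%) and 0 of the 87 members, all of which were tested, and DESeq2 called 246 genes (1.5%) and 0 members. At an unadjusted p under 0.05 stood 5 members (5.75%) and 13.3% of all genes. The test of the 6 circadian times with edgeR, which allows any shape, called 42 genes (0.256%) and 0 members, or 20 genes and 0 members with the day as a block for the pairing, and 16 members (18.4%) and 12.7% of all genes had an unadjusted p under 0.05. Of those 16 members, 13 were Trbv. DESeq2 called 3 members in this comparison, Trbv12-1 (adjusted p = 0.0284), Trbv12-2 (adjusted p = 0.0297) and Trbv16 (adjusted p = 0.0113). It called 516 genes in all, so the share was 3.45% of members and 3.15% of all genes.

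Both libraries taken at CT2 stood high for many beta segments. Trbv16 had 48.8 CPM at CT2 of day 2 and 62.1 CPM at CT2 of day 1, while its 10 other libraries lay between 37.5 and 43.4 CPM. Its edgeR adjusted p was 0.173 over the 6 times. Trbv12-2 had 52.6 and 62.8 CPM at CT2 of day 2 and day 1, and the 10 others reached at most 48.5 CPM (edgeR adjusted p = 0.170). Trbv31, with the smallest unadjusted p of the Trbv members in the 24 h test, had 12.1 and 16.1 CPM at CT2 of day 2 and day 1, a fitted amplitude of 0.21 ± 0.06 (log2, standard error) and a peak at 2.40 ± 1.13 h (edgeR adjusted p = 0.283). That amplitude was 0.13 without CT2 of day 1 and 0.08 when scaled to the summed Trbv counts. In 19 of the 87 members (11 Trbv and 8 Trav, 21.8%) both CT2 libraries lay above the 10 others, against 3.69% of all tested genes. In 0 members did both lie below the rest, against 1.87% of all genes. CT2 was singled out after the values were seen. At CT14 both libraries lay below the 10 others in 3 of 87 members (3.45%), against 5.07% of all genes. The CD8 T cell and receptor complex markers, which include the constant genes, were also highest at CT2, with 8803 CPM on day 2 and 8635 CPM on day 1 against at most 8312 CPM in the 10 others. Some other cell types differed widely between these libraries. B cell markers summed to 175 CPM at CT2 of day 2 and 320 CPM at CT2 of day 1. In the same order, neutrophil markers summed to 11.6 and 34.3 CPM, and monocyte and macrophage markers to 578 and 1292 CPM. Other lists differed less, with 191 and 240 CPM for CD4 T cell markers and 268 and 285 CPM for NK cell markers. Gamma delta T cell markers summed to 44.9 and 51.6 CPM, and invariant NKT and MAIT markers to 321 and 344 CPM. The part of the mix of cells in the V segment values was not tested.

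Summed over the 22 members, Trbv stood at 655 ± 117 CPM at CT2, 515 ± 0.0474 at CT6, 530 ± 20.0 at CT10, 497 ± 9.67 at CT14, 515 ± 0.551 at CT18 and 503 ± 29.7 at CT22 (SD, n = 2 each). Summed over the 65 members, Trav stood at 188 ± 6.02 CPM at CT2 and between 157 ± 7.31 and 172 ± 8.08 CPM at the other times (SD, n = 2 each). The CT2 sum of Trbv rested on unequal libraries, 573 CPM on day 2 and 738 CPM on day 1. The calls moved with these libraries. Leaving out CT2 of day 2 let 15 members pass the test of circadian times, 14 of them Trbv, with edgeR adjusted p of 0.00435 for Trbv12-1 and 0.00502 for Trbv16. The same fit called 1745 genes in all, so 17.2% of members stood beside 10.2% of all genes. Leaving out CT2 of day 1 let 0 members and 664 genes pass (3.91%). The number of members with an unadjusted p under 0.05 was 22 without CT2 of day 2, where 28.1% of all genes had one. It was 3 without CT2 of day 1 (19.8% of all genes) and 0 without both (18.9%).

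**Figure D4:**
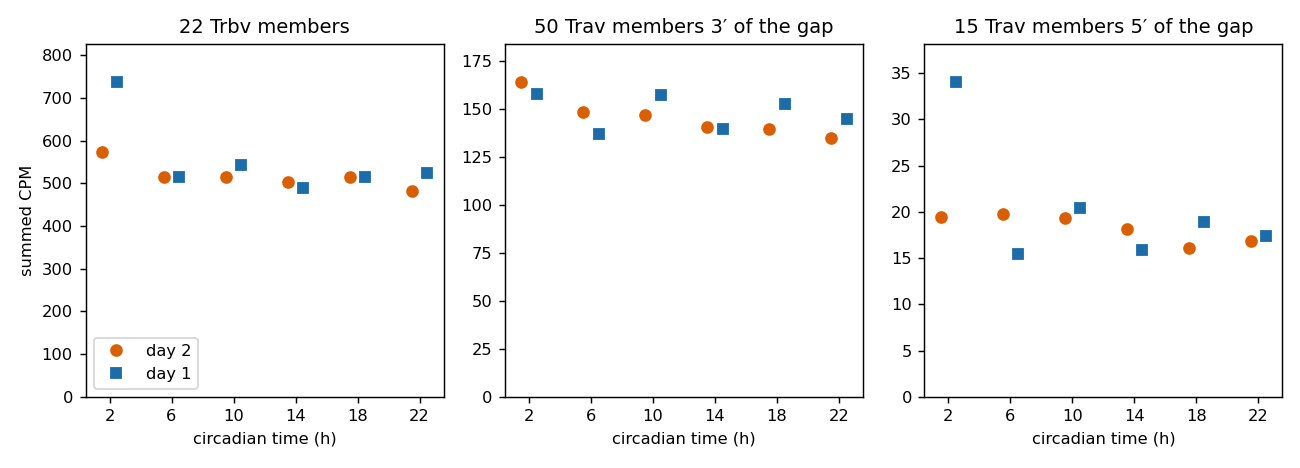
Summed CPM of the 22 Trbv members, the 50 Trav members 3′ of the widest gap and the 15 Trav members 5′ of it (vertical axes from 0) by circadian time in hours, with day 2 as orange circles left of day 1 as blue squares. CT2 of day 1 stands highest for Trbv at 738 CPM and for the 15 Trav members at 34.1 CPM, while the 50 other Trav members lie between 135 and 164 CPM.

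Relative to the sum of a locus, no segment had a small p in the 24 h test or the test of circadian times. Scaled to the summed Trbv counts or to the summed Trav counts in place of all counts, 0 members had an unadjusted p under 0.05 in the edgeR 24 h test and in the edgeR test of circadian times. Of all genes, 9.81% and 9.64% had one in the 24 h test under the Trbv and Trav scaling, and 20% and 22.6% in the test of circadian times. In the edgeR test of whether the 24 h wave differed between days, 0 and 4 members had one, beside 1.38% and 2.03% of all genes. These fits still estimated the spread over all genes, which the scaling also moved. They therefore do not show that usage is steady. The median coefficient of variation of Trbv usage was 4.56%, against 3.68% from counting alone, and that of Trav usage was 15.0% against 13.6%. The coefficient exceeded 1.5 times the counting value in 4 of 22 Trbv and 5 of 65 Trav members, up to 1.73 times for Trbv3 and 2.22 times for Trav6-1. The corresponding median for the CPM of Trbv members was 13.8% with all libraries and 6.34% without CT2 of day 1. Usage on a log2 scale correlated across the 22 Trbv members with Pearson's r of 0.97 to 1.00 over the 66 pairs of libraries, and across the 65 Trav members with 0.89 to 0.98. These correlations are across segments within the same libraries and describe their likeness only.

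No member passed the test of the days. The edgeR day test, day 2 against day 1 beside the 24 h wave, called 0 of 16396 genes (0%) and 0 members, and 0 members had an unadjusted p under 0.05, against 1.82% of all genes. DESeq2 called 6 genes and 0 members. Trbv1, the Trbv member with the smallest unadjusted p, had a log2 difference of day 2 minus day 1 of -0.18 ± 0.09 (standard error, edgeR adjusted p = 1), and Trav6-3, the Trav member with the smallest, had -0.27 ± 0.14 (edgeR adjusted p = 1). These differences were -0.08 for Trbv1 without CT2 of day 1 and -0.06 for Trav6-3 from RSEM expected counts. Trbv1 ranged from 21.4 to 26.0 CPM over the 6 libraries of day 2 and from 24.2 to 38.6 CPM over those of day 1, which overlap. The edgeR test of whether the 24 h wave differed between days called 0 genes (0%), as did DESeq2, with 4.44% of all genes and 1 member, Trbv4, at an unadjusted p under 0.05. A p that misses the threshold does not show that the days are alike.

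The library of CT2 on day 1 stood apart from the other 11 in a way that depended on the locus and on position in it. It was the highest library for 42 of the 87 members, 20 of 22 Trbv and 22 of 65 Trav, while it was the highest for 19.1% of all tested genes. Each Trbv member was higher there than the median of the other libraries, by 1.15 times for Trbv24 to 2.14 times for Trbv4. Summed Trbv was 1.43 times that median by counts and 1.36 times by RSEM expected counts. Other short genes were higher there too: the 154 genes of at most 500 bases and at least 5 CPM outside the V segments had a median of 1.34 times. Trbv14 had 39.5 CPM in CT2 of day 1 and 22.1 to 27.5 CPM in the other 11 libraries. Trbv1 had 38.6 CPM there against 21.4 to 27.0 CPM. Within the beta locus usage shifted slightly there: Trbv14 was at its highest usage of 5.35% and Trbv13-2 at its lowest of 7.33%. The beta constant genes were also highest in that library, where Trbc1 and Trbc2 together had 1273 CPM against 828 to 1092 CPM. The alpha constant gene Trac had 715 CPM there, inside the 585 to 736 CPM of the others. Summed Trbv per summed Trbc was 0.579 there and 0.524 to 0.621 elsewhere, where the 0.621 was CT18 of day 1 and the next value 0.553. Summed Trav per Trac was at its highest there, 0.269 against 0.236 to 0.261 elsewhere.

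In the alpha locus the values of this library differed along the locus. The split was placed after the values were seen, at the widest gap between neighbouring member starts, 191138 bases between Trav13d-1 (start chr14:52851290) and Trav8d-2 (start chr14:53042428), and so was not tested. The 15 members 5′ of the gap, from Trav1 to Trav13d-1, summed to 34.1 CPM in CT2 of day 1 and to 15.4 to 20.5 CPM in the other 11 libraries, 1.88 times their median. All 15 were highest in that library, and 14 exceeded 1.5 times the median of the others. CT2 of day 1 was the highest library for 19.1% of all tested genes, and the share of all genes above 1.5 times was not counted. Genes of at most 500 bases with a mean of at least 5 CPM, V segments left out, had a median of 1.34 times there. The 50 members 3′ of the gap summed to 158 CPM there and 135 to 164 CPM elsewhere, 1.09 times the median. Of those 50, 7 were highest there and 1 exceeded 1.5 times.

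Single members show the same. Trav6-1 had 4.61 CPM in CT2 of day 1, against 1.83 to 3.22 CPM in the other libraries. Trav7-1 had 3.08 CPM there against 0.855 to 1.57 CPM, and Trav1 had 2.23 CPM against 0.855 to 1.55 CPM. On the other side of the gap, Trav12-2 had 7.54 CPM there against 5.73 to 8.35 CPM, and Trav3-3 8.06 CPM against 6.59 to 8.38 CPM, both inside the range of the others.

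The 15 members held 17.7% of Trav counts in CT2 of day 1 (917 of 5169 counts, 95% Wilson interval 16.7% to 18.8%) and 10.1% to 11.7% in the others. That interval covers counting error only. RSEM expected counts, in which shared reads are divided, gave 26.6 CPM of expected counts for the 15 members in CT2 of day 1 against 12.9 to 17.2 CPM, 1.81 times the median, and 0.978 times for the 50 members. The effective number of Trav segments was 52.0 in that library and at most 50.5 in any other. A chi-square of each library's member counts against the pooled usage of the 12 libraries, per degree of freedom, was 4.14 there and 0.839 to 1.28 elsewhere for Trav, and 3.10 there and 0.658 to 1.96 elsewhere for Trbv. A value near 1 is what counting alone gives.

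**Figure D5:**
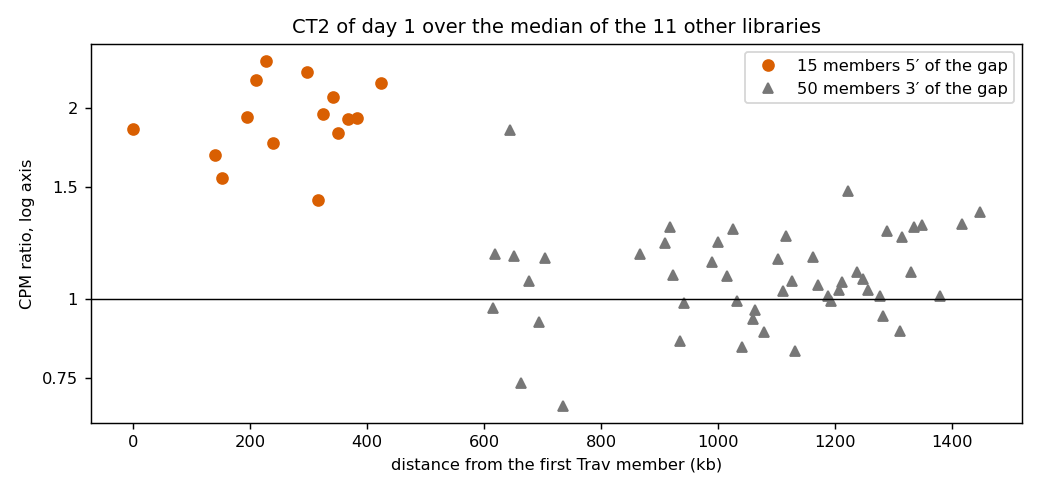
Ratio of CPM in CT2 of day 1 to the median of the 11 other libraries (vertical log axis) for each of the 65 Trav members against distance in kb from the first member; circles are the 15 members 5′ of the gap and triangles the 50 members 3′ of it. The 15 circles lie between 1.43 and 2.37, and the triangles between 0.679 and 1.85.

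Other measures moved with the same library. Genes with a length of at most 500 bases and a mean of at least 5 CPM, V segments left out, had a median log2 ratio of 0.42 in CT2 of day 1 to the median of the others (154 genes), and genes over 5000 bases one of -0.13. In the other 11 libraries the same short genes stood between -0.10 and 0.05. The median length was 378 bases for the 15 members 5′ of the gap and 376 bases for the 50 members 3′ of it, and 369 bases for the Trbv members. Of 12 listed gamma delta T cell markers 7 were found, and they summed to 51.6 CPM in CT2 of day 1. That was near the top of the range of 42.2 to 52.6 CPM over all libraries (median 48.5 CPM). The invariant NKT and MAIT markers summed to 344 CPM there, near the top of 307 to 346 CPM (median 319 CPM). The 9 tested genes of T cell receptor rearrangement summed to their highest value there, 530 CPM, of a range from 488 CPM, with Rag1, Rag2 and Ptcra too low to be tested. The part of gene length, of rearrangement genes and of the library as such in the values of the V segments was not tested.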

How the data were processed

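RNA from 12 samples of lymph node CD8+ T cells was measured. The submitters' processing notes name STAR 2.5.1b, RSEM 1.2.28, Trimmomatic 0.35 and bcl2fastq 2.19, with build GRCm38. Their annotation is not given in the sources used here. As deposited by the authors, counts per gene were raw, in STAR's layout, from which the stranded column 4 was used: rows that name no gene held 29.3% to 31.2% of fragments and were left out. The authors also deposited RSEM expected counts and TPM; expected counts were rounded where tested. Of 50600 identifiers, 50376 matched a GENCODE M21 symbol.

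Members, lists and tests were chosen with earlier results of these data known. edgeR 4.0.16 in R 4.3.3 (filterByExpr, TMM) tested 16396 genes, with Benjamini-Hochberg adjustment at 0.05 over all of them; DESeq2 1.42.0 was an alternative. The tests were also run on simulated counts, with the same spread for every gene and changes only in genes above a lower limit of counts. That run does not show what the tests can detect among the members of lowest count. The members named were those of highest usage, of largest and smallest spread at 5 CPM or more, of smallest p in each test and next to the limit of 120, plus Trav1, Trbv1 and Trbv31; any other gene was named with its values in view.

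The replicate number in the labels is the day, so it pairs libraries of a day. Over 10153 genes, day deviations correlated between the 15 pairs of times from -0.61 to 0.35, with a median of 0.09 and 6 above 0.1. The 2 libraries of each time differed by more than counting noise, by a chi-square, divided by its degrees of freedom, of 2.87 (CT18) to 35.9 (CT2).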

Additional observations from a re-analysis of the deposited data

Results flagged for a closer look

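Within the 6 libraries of a day, a sample was marked where its gap to the nearest other was a larger share of the whole range than Dixon's 95% critical value allows. Of 72 such groups, for 36 segments or sums, 20 were marked, and chance alone marks about 1 in 20 groups. Many of the 36 were chosen for their spread or small p over these libraries, and the sum of 15 Trav members after CT2 of day 1 was seen, so the 20 marks are not to be read against that rate. All 20 marks fell on a CT2 library. On day 2, CT2 stood high for Trbv12-2 (52.58 CPM, next 45.93), Trbv13-2 (49.31, next 43.3), Trbv16 (48.82, next 41.22) and summed Trbv (572.5, next 515.5). On day 1, CT2 stood high for the Trbv segments Trbv12-2 (62.82 CPM, next 48.54), Trbv16 (62.11, next 43.45), Trbv3 (59.88, next 44.88), Trbv29 (58.21, next 43.87), Trbv13-1 (55.68, next 41.14), Trbv12-1 (51.89, next 37.33), Trbv14 (39.45, next 27.46), Trbv1 (38.56, next 27.03), Trbv17 (35.85, next 27.88) and Trbv31 (16.08, next 11.47). It also stood high for summed Trbv (737.7 CPM, next 543.9) and for the constant gene Trbc1 (440.1, next 361.0). Among Trav segments it stood high for Trav6-1 (4.606 CPM, next 2.123), Trav7-1 (3.083, next 1.486), Trav6d-4 (1.783, next 1.058) and the sum of the 15 members 5′ of the gap (34.06, next 20.45). These segments share libraries and are not independent.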

How the results depend on the processing

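Among the members of smallest p in the 24 h and day tests, none was marked as reversed under any edgeR setting. Direction was not followed for other members, with DESeq2, or in the circadian times and interaction tests. The untested ratio of CT2 of day 1 to the median of the others, for the 50 Trav members 3′ of the gap, was 1.09 by counts and 0.978 by RSEM expected counts. In the 24 h test, 0 genes passed with edgeR, 246 with DESeq2, 323 with no filter on low counts, 431 without both CT2 libraries, 74 without CT10 of day 1 and CT2 of day 2, and 0 to 145 with 1 library left out. In the test of circadian times, 42 genes passed with edgeR, 516 with DESeq2, 2146 with no filter, 72 when scaled to summed Trav counts, 76 when scaled to summed Trbv counts, 527 without both CT2 libraries, 1359 without CT10 of day 1 and CT2 of day 2, and 6 to 1745 with 1 library left out (664 without CT2 of day 1, 1745 without CT2 of day 2 and 6 without CT14 of day 2). Members passing that test were 0 with edgeR, 3 with DESeq2, 11 with no filter, 14 without CT10 of day 1 and CT2 of day 2, and 0 to 15 with 1 library left out. Genes tested were 16396 with edgeR and with DESeq2, 29911 with no filter and 16912 without CT10 of day 1 and CT2 of day 2. The counts of members are to be read beside the genes passing in the same fit, given above. Leaving out CT10 of day 1 and CT2 of day 2 left 1 library at each of those times. With the day as a replicate block, 20 genes and 0 members passed the test of circadian times. The pairing changed no other call. In the day test 6 genes passed with DESeq2, 6 without both CT2 libraries, 16 without CT10 of day 1 and CT2 of day 2 and 0 to 2 with 1 library left out, and in the interaction test 1 without CT10 of day 1 and CT2 of day 2 and 0 to 1 with 1 library left out. The cause of these moves was not tested.

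The mean effective number of segments was 49.81 for Trav and 16.47 for Trbv as reported, 48.52 for Trav and 18.06 for Trbv from RSEM expected counts, 51.71 and 16.59 over all genes named Trav or Trbv, and 77.78 and 17.77 from TPM. The TPM value for Trav is larger than the number of Trav members, 65, so it covers further Trav genes. It therefore does not show the effect of scaling for length alone. The median coefficient of variation of Trbv members was 13.8% as reported, 9.002% from TPM and 6.338% without CT2 of day 1. The counts are unique alignments, so copies with few private bases are measured poorly, and most Trav members average under 5 CPM, where counting error is most of their spread.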
